A study of Mus musculus with 12 samples.

Results

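The genes described here are 9 mouse genes of glycogen synthesis and breakdown, Ugp2, Gyg, Gys1, Gbe1, Pygb, Pygl, Pygm, Ppp1r3c and Ppp1r3b, chosen by name and found by their Ensembl gene identifiers among the 28948 genes of an RNA sequencing matrix. All 9 had a row, and 7 passed the filter on low values (at least 1 RPKM, reads scaled to exon length and sequencing depth, in at least 3 libraries), as did 11245 genes in all. The matrix holds 12 libraries of 3T3-L1 adipocytes, a Swiss mouse fibroblast line differentiated into fat cells with 5 µg/ml insulin, 10 µM troglitazone, 1 µM dexamethasone and 0.5 mM isobutylmethylxanthine. On day 4 this changed to insulin only, and on day 6 to growth medium. There were 4 groups of 3 libraries: cells constitutively overexpressing FOXP1, cells in which a short hairpin targeted Foxp1, cells with a scrambled hairpin, and cells with an empty vector. Overexpression was compared with the empty vector and knockdown with the scrambled hairpin, to ask what more or less of the forkhead transcription factor Foxp1 changes in fat cells. The day of harvest, the construct's species, the number of hairpins or clones and whether replicates were separate cultures are not stated, so the p-values measure the spread between these libraries, which may be technical.

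Glycogen is a branched store of glucose. Glucose 1-phosphate is turned into UDP-glucose, glycogenin builds a short primer from it, glycogen synthase lengthens the chains and the branching enzyme adds branch points. Glycogen phosphorylase releases glucose 1-phosphate again. Synthase and phosphorylase are both set by phosphorylation: targeting subunits bring protein phosphatase 1 to the glycogen particle, where it activates synthase and inactivates phosphorylase. Fat cells hold little glycogen next to liver and muscle, and one targeting subunit, Ppp1r3c (protein targeting to glycogen), has been studied in 3T3-L1 adipocytes.

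The libraries held 35252019 to 38450002 reads by the step between low values. Foxp1 followed the labels, at 6.56 ± 0.710 RPKM with overexpression, against 1.80 ± 0.0349 with the empty vector, and at 1.11 ± 0.0335 RPKM with knockdown, against 2.18 ± 0.0624 with the scrambled hairpin (SD, n = 3 each). Mitochondrial transcripts took 9.65% to 13.1% of reads with overexpression, against 8.61% to 9.35% with the empty vector, and 5.97% to 6.82% with knockdown, against 4.80% to 5.69% with the scrambled hairpin. Overexpression replicate 3 stood apart with the highest of these shares. Of 7 markers of mature fat cells, 6 reached 1 RPKM and leptin stayed under 1 RPKM. Their summed level was 2488 to 2690 RPKM with overexpression, against 5934 to 6031 with the empty vector, and 7445 to 7988 RPKM with knockdown, against 5175 to 5303 with the scrambled hairpin. Of the 6 tested, 5 fell and 1 rose with overexpression, and 5 rose and 1 fell with knockdown. The one that went the other way both times was Slc2a4, the insulin-responsive glucose transporter, with log2 fold changes of 0.34 and -0.32 (limma adjusted p = 3.00e-05 and 7.14e-05). Fewer mature fat cells and less of these RNAs per cell cannot be told apart here, and the part of fat cell state in the results below was not tested. The 5 markers of preadipocytes and fibroblasts, all detected, summed to 365 to 368 RPKM with overexpression, against 238 to 266 with the empty vector, and to 252 to 287 RPKM with knockdown, against 292 to 329 with the scrambled hairpin, and Col1a1 made up most of these sums. With overexpression 4 rose and Pdgfra fell, and with knockdown Pdgfrb rose, 2 fell and 2 were not called. Of 9 skeletal muscle markers 3 reached 1 RPKM (Acta1, Des and Mb), and Ckm, Myog and Ryr1 were at or near 0. Myh1 and Myh4 had no row in the matrix. The muscle markers with a row summed to 47.6 to 53.8 RPKM with overexpression, against 24.97 to 25.8 with the empty vector. With knockdown this sum was 9.65 to 10.7 RPKM, against 11.04 to 12.7 with the scrambled hairpin. The members did not move together. With overexpression Acta1 and Mb rose and Des fell, while with knockdown Acta1 rose and Mb and Des fell. None of 6 hepatocyte and 4 endothelial markers reached 1 RPKM in any library, and of 4 astrocyte and 5 macrophage markers 1 each did (Aldh1l1 and Cd68).

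Of the 7 tested genes, Ppp1r3b, the targeting subunit best known from liver, changed most with overexpression. With knockdown its fall was close to that of Ppp1r3c on the log2(RPKM + 1) scale. The ratios of means with knockdown were 0.474 for Ppp1r3b and 0.546 for Ppp1r3c. Ppp1r3b rose with overexpression and fell with knockdown, while Ppp1r3c, Gyg and Pygb fell in both comparisons. Gys1 rose and Gbe1 fell slightly with overexpression and neither passed the test in knockdown; Ugp2 fell slightly with knockdown. With overexpression 2 of the 7 tested genes rose and 4 fell, with knockdown 5 fell and 0 rose, and the difference between the 2 responses was above 0 for 5 and below 0 for 0 (limma on log2(RPKM + 1), Benjamini-Hochberg adjusted p under 0.05 over all genes tested). Of all genes tested, 31.0% were called higher and 20.3% lower with overexpression, and 18.7% higher and 31.0% lower with knockdown. For the difference, 34.6% were called above 0 and 20.3% below 0. In either direction the shares were 51.4%, 49.7% and 54.9%, so that a call as such is common here. The libraries of the 2 groups did not overlap for 6 of the 7 genes with overexpression and 5 with knockdown, beside 57.5% and 59.6% of all genes tested. With each library scaled to the same sum, the calls of all genes in overexpression were 2426 higher and 2566 lower, beside 3490 and 2285 without that scaling. The median log2 fold change of the 7 genes was -0.16 with overexpression, beside 0.04 for all genes, and -0.39 with knockdown, beside -0.04 for all genes.

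**Figure D1:**
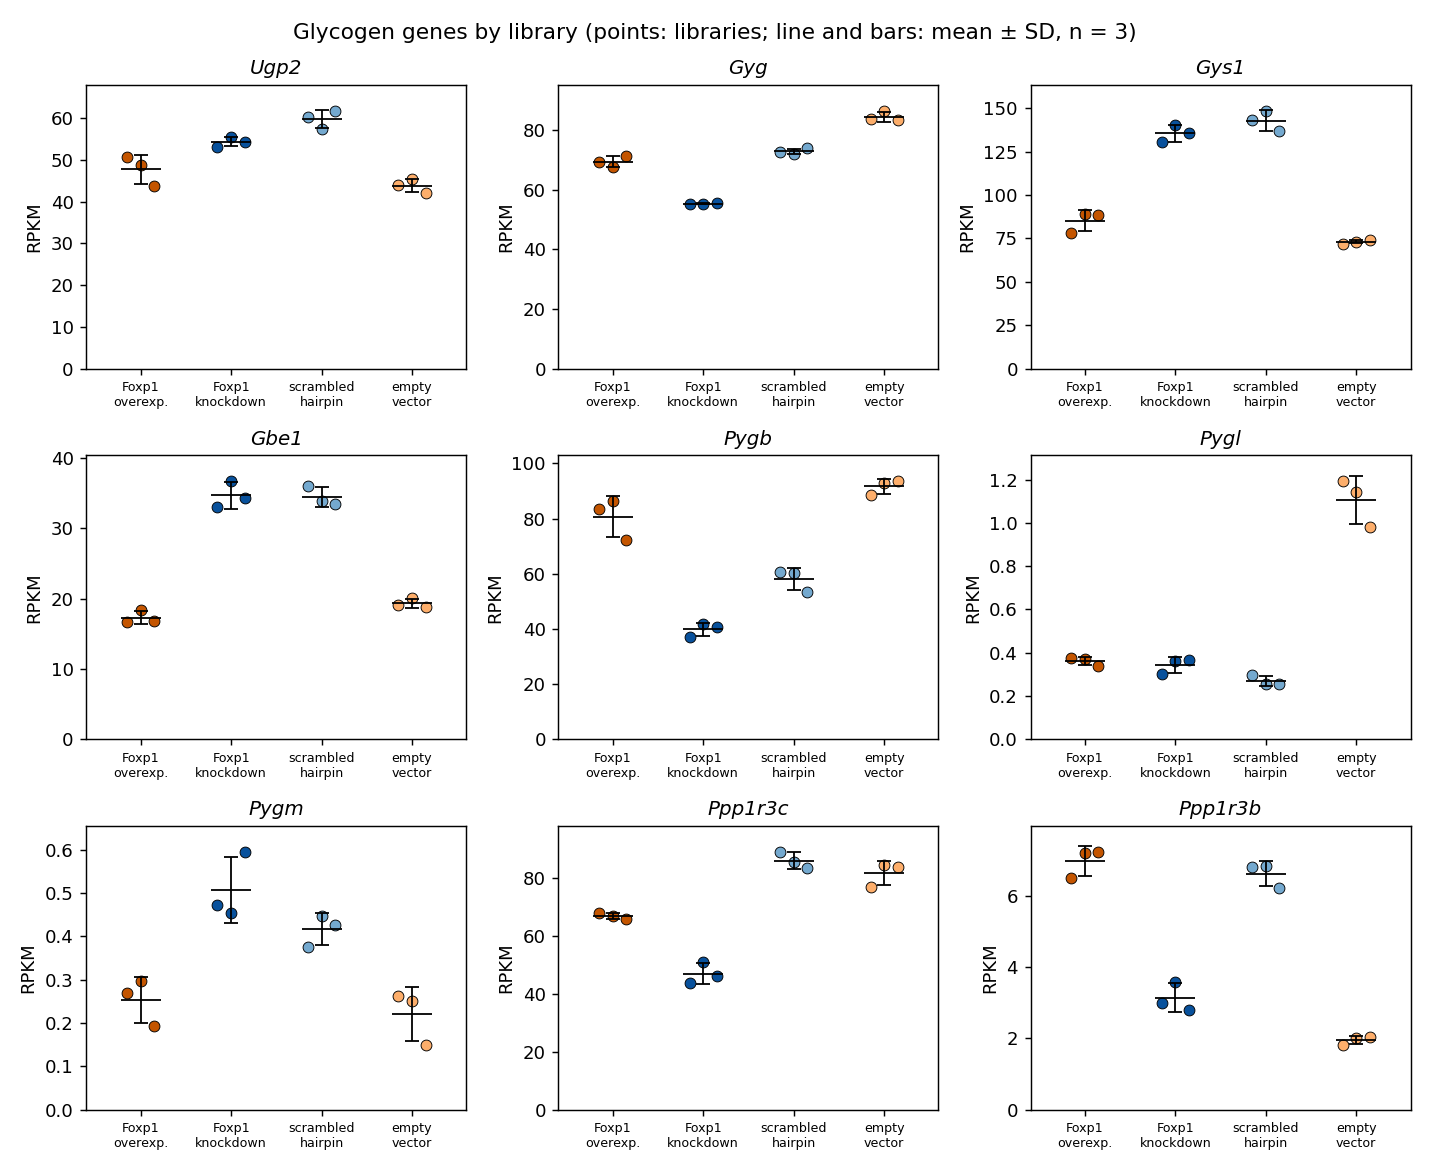
RPKM of each of the 9 genes (vertical axis, from 0) in the 12 libraries, by group (horizontal axis); points are libraries, the long line and bars are the mean ± SD of 3. Ppp1r3b is high with overexpression and with the scrambled hairpin and low in the other groups, whereas Gys1 and Gbe1 are high with both hairpins and low with overexpression and the empty vector.

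Ppp1r3b lies on chromosome 8 at 35375739 to 35388139, plus strand, of mouse assembly GRCm38, and had 427 to 1654 reads per library. It had 6.49, 7.20 and 7.23 RPKM with overexpression, against 1.81, 2.01 and 2.03 with the empty vector. Every overexpression library was over 3 times as high as every empty vector library. The ratio of means was 3.57 (log2 fold change 1.43, SE 0.068, limma adjusted p = 4.19e-09). With knockdown it had 3.00, 3.59 and 2.81 RPKM, against 6.81, 6.83 and 6.20 with the scrambled hairpin. These groups did not overlap either, and the ratio of means was 0.474 (log2 fold change -0.89, SE 0.068, limma adjusted p = 1.25e-06). The difference between the responses was 2.32 on the log2 scale (SE 0.096, limma adjusted p = 1.99e-09). Foxp1 itself differed by 2.02 between the responses on the same scale, which understates changes of low genes. The ratios of means of Foxp1 were 3.64 with overexpression and 0.508 with knockdown, close to those of Ppp1r3b. The controls also differed: Ppp1r3b was 3.39 times as high with the scrambled hairpin as with the empty vector (log2 fold change 1.37, adjusted p = 3.52e-09), while Foxp1 was 1.21 times as high. In order of level, overexpression and scrambled hairpin came first and overlapped, followed by knockdown and then the empty vector, each apart from its neighbour. The 2 controls thus lay on either side of the knockdown group.

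Ppp1r3c (chromosome 19, 36731731 to 36736653, minus strand) encodes the targeting subunit at the highest level in these cells. It had 68.1, 66.9 and 65.9 RPKM with overexpression, against 76.8, 84.5 and 84.0 with the empty vector, a mean 0.819 times that of the control (-0.28 in log2 fold change, SE 0.054, limma adjusted p = 8.97e-04). With knockdown it had 43.8, 50.9 and 46.3 RPKM, against 89.1, 85.7 and 83.4 with the scrambled hairpin, a ratio of 0.546 (log2 fold change -0.86, SE 0.054, limma adjusted p = 2.90e-07). The groups did not overlap in either comparison. Both changes were falls, and the fall with knockdown was the deeper one: the difference between the responses was 0.58 (SE 0.077, limma adjusted p = 4.77e-05). The scrambled hairpin and empty vector groups overlapped, at 86.1 ± 2.89 RPKM and 81.8 ± 4.30 RPKM (SD, n = 3 each; log2 fold change 0.07, SE 0.054, adjusted p = 0.242), so the order of levels was both controls, then overexpression, then knockdown.

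A further subunit of this family, Ppp1r3d, moved against Ppp1r3b with overexpression and with knockdown. It fell to 4.40 ± 0.231 RPKM with overexpression, against 7.89 ± 0.146 with the empty vector (0.558 times the control mean, log2 fold change -0.72, limma adjusted p = 2.08e-08), and rose to 11.5 ± 0.279 RPKM with knockdown, against 9.11 ± 0.355 with the scrambled hairpin (1.26 times the control mean, log2 fold change 0.30, limma adjusted p = 8.16e-05; SD, n = 3 each). Between the controls it went the same way as Ppp1r3b, with the scrambled hairpin mean 1.15 times that of the empty vector (log2 fold change 0.18, limma adjusted p = 0.00139). Ppp1r3d exceeded Ppp1r3b in all 9 libraries of the other groups and was below it in the 3 overexpression libraries. The ratio of Ppp1r3d to Ppp1r3b RPKM was 0.633 ± 0.0451 with overexpression, 3.69 ± 0.422 with knockdown, 1.38 ± 0.129 with the scrambled hairpin and 4.05 ± 0.194 with the empty vector. Of the summed RPKM of the subunits Ppp1r3b to Ppp1r3g, Ppp1r3c made up 84.5% ± 0.867 with overexpression, 75.3% ± 0.602 with knockdown, 83.9% ± 0.512 with the scrambled hairpin and 88.3% ± 0.300 with the empty vector. Ppp1r3b made up 8.79% ± 0.577 with overexpression, 5.01% ± 0.399 with knockdown, 6.45% ± 0.228 with the scrambled hairpin and 2.11% ± 0.0334 with the empty vector. The share of Ppp1r3d was 5.55% ± 0.244 with overexpression, 18.4% ± 0.836 with knockdown, 8.89% ± 0.590 with the scrambled hairpin and 8.53% ± 0.280 with the empty vector. The sum itself was 79.3 ± 0.874 RPKM with overexpression, against 92.6 ± 4.57 with the empty vector, and 62.4 ± 4.27 RPKM with knockdown, against 102.6 ± 2.84 with the scrambled hairpin. Ppp1r3e and Ppp1r3f stayed under 1 RPKM in every library, and Ppp1r3g had at most 0.0105 RPKM.

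**Figure D2:**
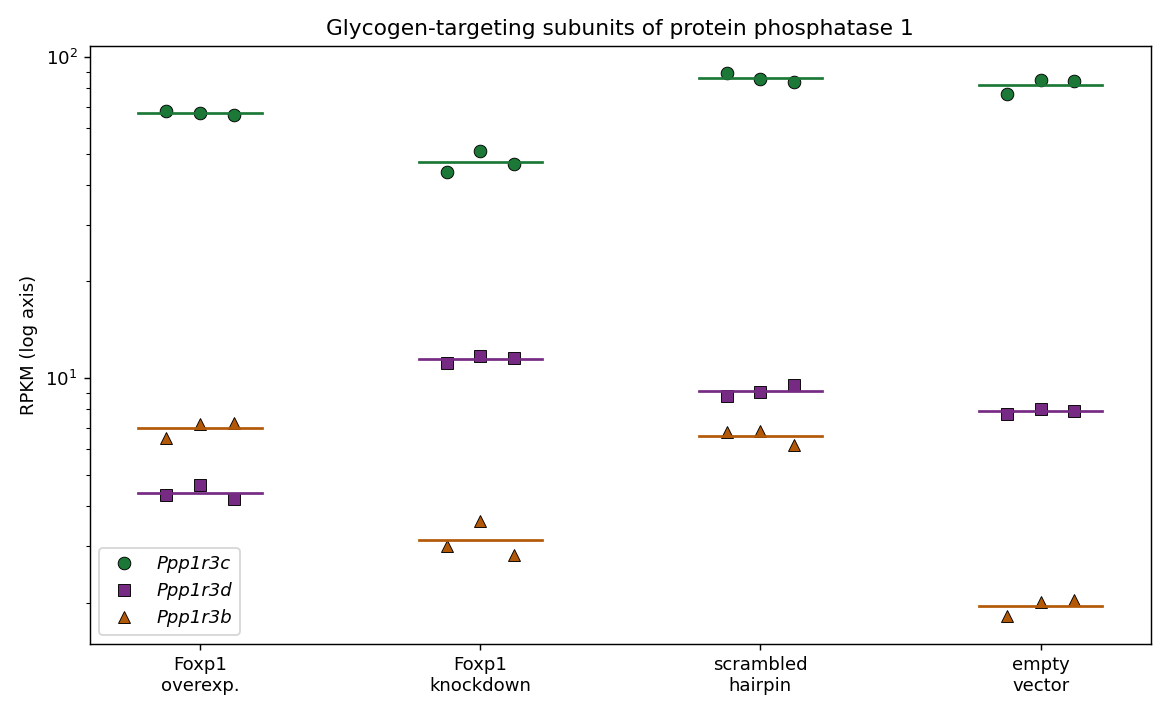
RPKM (vertical log axis) of 3 glycogen-targeting subunits of protein phosphatase 1 in the 12 libraries, by group (horizontal axis); points are libraries and lines are group means. Ppp1r3d, at 4.21 to 4.66 RPKM with overexpression, lies under Ppp1r3b, at 6.49 to 7.23 RPKM, in that group and above it in the others.

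Gyg encodes glycogenin, the protein that primes each glycogen particle (chromosome 3, 20122084 to 20155317, minus strand). It had 69.3, 67.7 and 71.3 RPKM with overexpression, against 83.5, 86.4 and 83.4 with the empty vector, a mean 0.822 times that of the control (log2 fold change -0.28, SE 0.032, limma adjusted p = 1.31e-05). With knockdown it had 55.0, 55.3 and 55.5 RPKM, against 72.5, 72.0 and 73.9 with the scrambled hairpin, a ratio of 0.759 (log2 fold change -0.39, SE 0.032, limma adjusted p = 2.03e-06). No groups overlapped, and the libraries within a group lay close together. The difference between the 2 falls was 0.11 (SE 0.045) and did not pass (limma adjusted p = 0.0538). By level the order was empty vector, scrambled hairpin, overexpression and knockdown, with no overlap between neighbours.

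Pygb encodes the brain-type glycogen phosphorylase, which frees glucose 1-phosphate from the chains (chromosome 2, 150786735 to 150831758, plus strand). It had 37.1, 41.7 and 40.6 RPKM with knockdown, against 60.6, 60.4 and 53.4 with the scrambled hairpin, a mean 0.685 times that of the control (log2 fold change -0.53, SE 0.070, limma adjusted p = 6.25e-05). With overexpression it had 83.5, 86.2 and 72.2 RPKM, against 88.6, 92.8 and 93.5 with the empty vector, a ratio of 0.880. These groups did not overlap, and the lowest library was overexpression replicate 3, which also had the highest mitochondrial share. That fall passed narrowly (log2 fold change -0.19, SE 0.070, limma adjusted p = 0.0420) and was -0.11 without overexpression replicate 3 (limma adjusted p = 0.143; 0.00905 to 0.143 over all 17 alternatives, of which 9 kept the call). The call also ended without any 1 of the empty vector libraries, at adjusted p = 0.0541, 0.102 and 0.113 without replicate 1, 2 and 3. The fall with knockdown was deeper than that with overexpression (difference 0.35, SE 0.099, limma adjusted p = 0.00995).

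Gyg, Pygb and Ppp1r3c, called lower in both comparisons, are shown with the 300 bases around their RefSeq starts (250 before and 50 after, build GRCm38.p6), each on the strand of its gene. Capitals mark ACGTG, the core of the hypoxia response element, or its reverse complement CACGT. The E-box palindrome CACGTG holds both of these, overlapping.
Gyg, chr3:20155067-20155366, minus strand: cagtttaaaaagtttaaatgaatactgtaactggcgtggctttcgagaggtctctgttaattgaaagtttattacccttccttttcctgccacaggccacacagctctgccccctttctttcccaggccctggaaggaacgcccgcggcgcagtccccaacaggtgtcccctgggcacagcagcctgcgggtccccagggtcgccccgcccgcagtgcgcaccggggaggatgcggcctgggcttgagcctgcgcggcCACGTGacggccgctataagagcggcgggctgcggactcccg
Pygb, chr2:150786546-150786845, plus strand: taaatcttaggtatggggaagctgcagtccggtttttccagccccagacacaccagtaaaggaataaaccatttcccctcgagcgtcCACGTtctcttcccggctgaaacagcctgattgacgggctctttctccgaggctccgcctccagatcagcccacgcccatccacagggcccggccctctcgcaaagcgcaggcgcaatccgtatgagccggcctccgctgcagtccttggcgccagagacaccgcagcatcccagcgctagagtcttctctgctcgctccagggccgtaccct
Ppp1r3c, chr19:36736555-36736854, minus strand: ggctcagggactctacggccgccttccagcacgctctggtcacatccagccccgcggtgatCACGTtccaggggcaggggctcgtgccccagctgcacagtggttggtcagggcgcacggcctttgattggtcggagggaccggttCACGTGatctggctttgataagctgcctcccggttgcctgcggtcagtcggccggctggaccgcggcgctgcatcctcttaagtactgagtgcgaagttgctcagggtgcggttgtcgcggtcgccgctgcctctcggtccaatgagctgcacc
The Ppp1r3c window held CACGTG starting 104 bases before the start and CACGT 189 bases before it, and the Gyg window held CACGTG starting 8 bases after the start. The Pygb window held CACGT 163 bases before the start. All these distances are from the RefSeq starts, which for the 3 genes shown differ from the GENCODE gene ends given above. Of 32817 such windows of all genes, 19.6% held ACGTG on either strand and 7.15% held CACGTG. The motif ACGTG, on either strand, was in a window of 6 of the 8 genes that had one, also of Pygl, Pygm and Ugp2, so it did not set apart the 3 genes shown. The forkhead motif TGTTTAC, found on either strand in 3.65% of all windows, was in none of the 9 windows of these 8 genes. These matches describe letters in short windows and no binding was measured.

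Ugp2, which makes UDP-glucose, the glucose donor of glycogenin and glycogen synthase, lies on chromosome 11 at 21321138 to 21371201, minus strand. It had 50.6, 48.8 and 43.8 RPKM with overexpression, against 44.0, 45.3 and 42.2 with the empty vector, and these groups overlapped (log2 fold change 0.12, SE 0.052, limma adjusted p = 0.0745). Overexpression replicate 3 was the library within the empty vector range, and without it the difference was 0.18 and passed (adjusted p = 0.00358; 0.00358 to 0.415 over 17 alternatives). With knockdown it had 53.2, 55.4 and 54.4 RPKM, against 60.3, 57.4 and 61.8 with the scrambled hairpin, and the fall, to 0.908 times the control mean, passed narrowly (log2 fold change -0.14, SE 0.052, limma adjusted p = 0.0443). That call ended without any 1 of the 6 libraries compared except scrambled replicate 2, at adjusted p = 0.0572 to 0.138, and with median-ratio scaling (0.0898). The difference between the responses was 0.25 (SE 0.073, limma adjusted p = 0.0107).

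Gys1, the glycogen synthase of muscle and most other tissues, lies on chromosome 7 at 45434844 to 45456619, plus strand. It had 78.4, 89.2 and 88.2 RPKM with overexpression, against 72.1, 73.2 and 73.9 with the empty vector, a mean 1.17 times that of the control, with no overlap (log2 fold change 0.22, SE 0.051, limma adjusted p = 0.00357). With knockdown it had 131, 141 and 136 RPKM, against 143, 149 and 137 with the scrambled hairpin, and the groups overlapped (log2 fold change -0.07, SE 0.051, limma adjusted p = 0.247). The responses differed by 0.29 (SE 0.073, limma adjusted p = 0.00453). A larger step lay between the controls: the scrambled hairpin group was 1.96 times as high as the empty vector group (log2 fold change 0.96, adjusted p = 6.65e-09). Of its 4789 exon bases, 310 are shared with Ruvbl2 on the opposite strand, and since the strand setting is not stated, reads there cannot be assigned to one gene.

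Gbe1, the branching enzyme (chromosome 16, 70313949 to 70569716, plus strand), showed the same step between controls. It had 16.6, 18.4 and 16.9 RPKM with overexpression, against 19.2, 20.1 and 18.9 with the empty vector, a mean 0.893 times that of the control (log2 fold change -0.16, SE 0.050, limma adjusted p = 0.0207). That call ended without overexpression replicate 1 (0.0738) and without empty vector replicate 2 (0.0830), within a range of 0.00668 to 0.0830 over 17 alternatives. With knockdown it had 33.1, 36.7 and 34.3 RPKM, against 36.1, 33.9 and 33.4 with the scrambled hairpin, and the groups overlapped (log2 fold change 0.01, SE 0.050, limma adjusted p = 0.902). The scrambled hairpin group was 1.78 times as high as the empty vector group (log2 fold change 0.80, adjusted p = 2.69e-08).

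Between the controls, 4 of the 7 tested genes were higher with the scrambled hairpin (Ppp1r3b, Gys1, Gbe1 and Ugp2, the last at a log2 fold change of 0.44) and 2 were lower (Pygb at -0.65 and Gyg at -0.21). Of all genes tested, 71.8% were called between the controls, 44.8% higher and 27.0% lower. The libraries did not overlap for 6 of the 7 genes, beside 78.9% of all genes tested. By level, Gys1 was highest in the overlapping scrambled hairpin and knockdown groups, then with overexpression and then with the empty vector, and Gbe1 in the same overlapping pair, then with the empty vector and then with overexpression. Ugp2 was highest with the scrambled hairpin, then with knockdown, then in the overlapping overexpression and empty vector groups. The order for Pygb was empty vector, overexpression, scrambled hairpin and knockdown, with no overlap. Vector type and any difference in batch or culture between the 2 experiments cannot be told apart. The ratio of Gys1 to Pygb RPKM was 1.07 ± 0.144 with overexpression, against 0.797 ± 0.0140 with the empty vector, and 3.41 ± 0.0968 with knockdown, against 2.46 ± 0.1001 with the scrambled hairpin (SD, n = 3 each). Within each comparison it was thus higher with the changed Foxp1 level, whichever way Foxp1 was changed, and no library overlapped its control group. With knockdown only Pygb of the 2 genes was called, and with overexpression the fall of Pygb kept its call in 9 of 17 alternatives. The step in this ratio between the 2 controls was larger than either change. How often the ratio of any 2 genes behaves in this way was not counted.

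**Figure D3:**
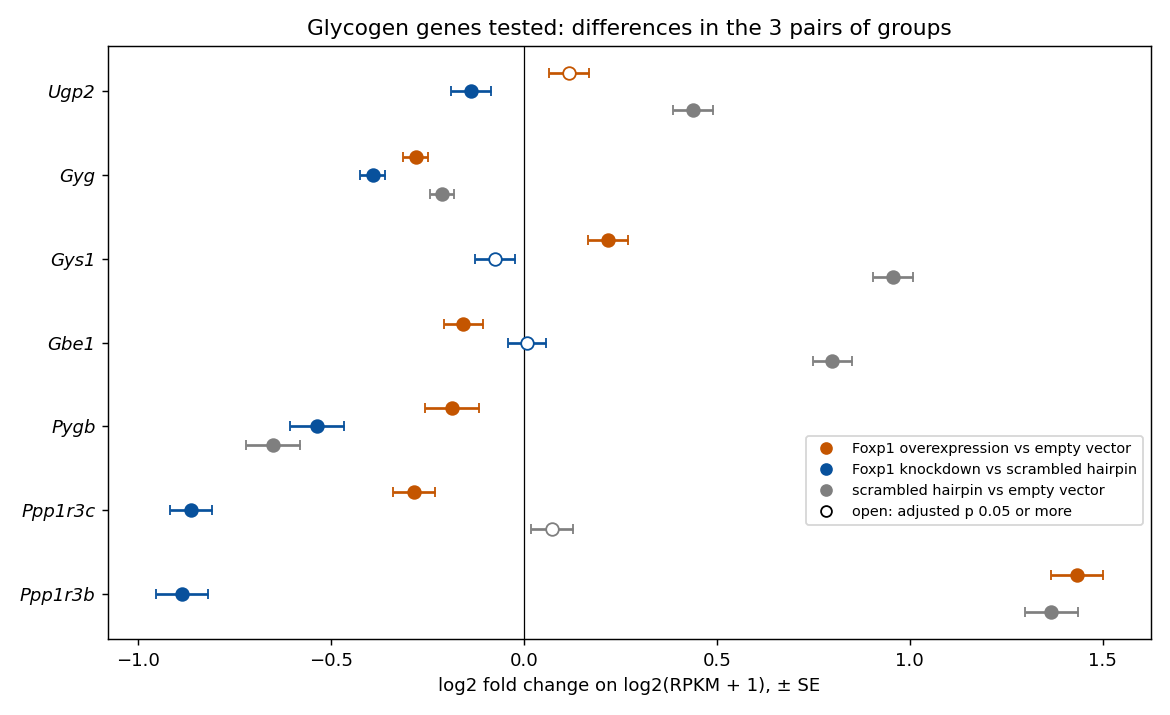
Log2 fold change on the log2(RPKM + 1) scale ± SE (horizontal axis) of the 7 tested genes (vertical axis) in overexpression against the empty vector, knockdown against the scrambled hairpin, and scrambled hairpin against the empty vector; filled points passed adjusted p under 0.05. Gys1 and Gbe1 have their largest difference between the controls, at 0.96 and 0.80.

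The other phosphorylases were nearly silent. Pygl, the liver form (chromosome 12, 70190811 to 70231488, minus strand), had 0.373, 0.371 and 0.339 RPKM with overexpression, against 1.19, 1.14 and 0.983 with the empty vector, which is 86 to 95 reads against 239 to 312. It had 0.302, 0.361 and 0.366 RPKM with knockdown, against 0.296, 0.254 and 0.257 with the scrambled hairpin. The empty vector group alone came near the filter, with 2 libraries above 1 RPKM, so Pygl was not among the genes tested. Its ratio of means was 0.326 with overexpression and 1.27 with knockdown. In the fit with no filter, its log2 fold change was -0.63 with overexpression (limma adjusted p = 2.37e-06) and 0.08 with knockdown (limma adjusted p = 0.247). Pygm, the muscle form (chromosome 19, 6384399 to 6398459, plus strand), had 0.270, 0.296 and 0.194 RPKM with overexpression, against 0.262, 0.251 and 0.150 with the empty vector. It had 0.472, 0.453 and 0.595 RPKM with knockdown, against 0.375, 0.447 and 0.427 with the scrambled hairpin. These are 17 to 72 reads per library, and neither comparison passed in the fit with no filter (limma adjusted p = 0.676 and 0.312). By level, Pygl was highest with the empty vector, then in the overlapping overexpression and knockdown groups, then with the scrambled hairpin, while Pygm was highest with knockdown, then with the scrambled hairpin, then in the overlapping overexpression and empty vector groups. Pygb made up 97.7% to 99.3% of the summed phosphorylase RPKM in every library. In the same way Gys1 made up 98.7% to 99.3% of the summed RPKM of Gys1 and Gys2, the liver synthase. Of the 50-base stretches of their transcripts, 0.273% in Pygb and 0.405% in Pygm were shared between these 2 genes.

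Among 25 further genes of glycogen metabolism, 18 were tested, of which 7 rose and 3 fell with overexpression and 2 rose and 8 fell with knockdown, beside the 31.0% higher and 20.3% lower, and the 18.7% higher and 31.0% lower, of all genes tested. Of the 8 falls with knockdown, 4 were small and lost their call under several alternatives: Phkg2 kept it in 5 of 17, Phka1 in 8 of 16, Gsk3a in 8 of 17 and Stbd1 in 12 of 17. With overexpression Phkb kept its fall in 7 of 17 and Gys2 its rise in 13 of 16. Their median log2 fold changes were 0.03 and -0.10, beside 0.04 and -0.04 for all genes. Besides Ppp1r3d, 3 of them were called in both comparisons, each higher with overexpression and lower with knockdown, as Ppp1r3b was. The share of all genes tested that were called in both comparisons in this way was not counted. Laforin (Epm2a), a phosphatase that removes phosphate from glycogen, had 2.36 ± 0.1003 RPKM with overexpression, against 1.55 ± 0.177 with the empty vector, and 1.95 ± 0.0903 RPKM with knockdown, against 2.59 ± 0.226 with the scrambled hairpin. Slc37a4 carries glucose 6-phosphate into the endoplasmic reticulum, and Pgm2 is a phosphoglucomutase family member whose human counterpart acts mainly on pentose phosphates. Slc37a4 had 14.3 ± 0.853 RPKM with overexpression, against 8.14 ± 0.361 with the empty vector, and 8.42 ± 0.165 RPKM with knockdown, against 11.1 ± 0.612 with the scrambled hairpin. Pgm2 had 6.13 ± 0.714 RPKM with overexpression, against 4.48 ± 0.315 with the empty vector, and 6.54 ± 0.294 RPKM with knockdown, against 9.34 ± 0.471 with the scrambled hairpin (SD, n = 3 each throughout). The ratios of means with overexpression were 1.52 for Epm2a, 1.75 for Slc37a4 and 1.37 for Pgm2, and with knockdown 0.751 for Epm2a, 0.755 for Slc37a4 and 0.699 for Pgm2. The differences between the responses were 0.69 for Epm2a, 1.11 for Slc37a4 and 0.83 for Pgm2 (limma adjusted p = 2.71e-05, 8.16e-08 and 1.56e-05). The controls also differed for these genes. The scrambled hairpin mean was 1.68 times that of the empty vector for Epm2a, 1.37 times for Slc37a4 and 2.09 times for Pgm2 (limma adjusted p = 1.04e-05, 1.12e-05 and 1.32e-07). For Epm2a and Pgm2 this step was larger than the rise with overexpression, and the knockdown and overexpression libraries of Pgm2 overlapped.

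Of the rest, Pgm1, the main phosphoglucomutase by RPKM here, which links glucose 1-phosphate and glucose 6-phosphate, rose with overexpression to 92.0 ± 4.13 RPKM, against 72.8 ± 2.01 with the empty vector (log2 fold change 0.33, limma adjusted p = 1.87e-05), and had 121 ± 3.17 RPKM with knockdown, against 124 ± 1.09 with the scrambled hairpin. A larger difference lay between the controls, with the scrambled hairpin mean 1.70 times that of the empty vector (log2 fold change 0.76, limma adjusted p = 5.02e-09). Pgm1 shares 398 exon bases with Itgb3bp on the opposite strand. Phka2, a regulatory subunit of phosphorylase kinase, fell with overexpression to 10.5 ± 0.462 RPKM, against 15.9 ± 0.506 with the empty vector (log2 fold change -0.56, limma adjusted p = 1.65e-06). Stbd1, a glycogen-binding protein, had its largest difference between the controls, at 15.8 ± 0.972 RPKM in scrambled hairpin cells and 6.28 ± 0.302 with the empty vector (log2 fold change 1.21, limma adjusted p = 4.33e-09). Of the 7 genes not tested, Ppp1r3a and Nhlrc1 had no row in the matrix and the others had under 1 RPKM in every library. Among these, Phkg1, the muscle catalytic subunit of phosphorylase kinase, had 0.262 to 0.284 RPKM with overexpression, against 0.823 to 0.887 with the empty vector, but it shares 630 exon bases with Sumf2 on the opposite strand.

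**Figure D4:**
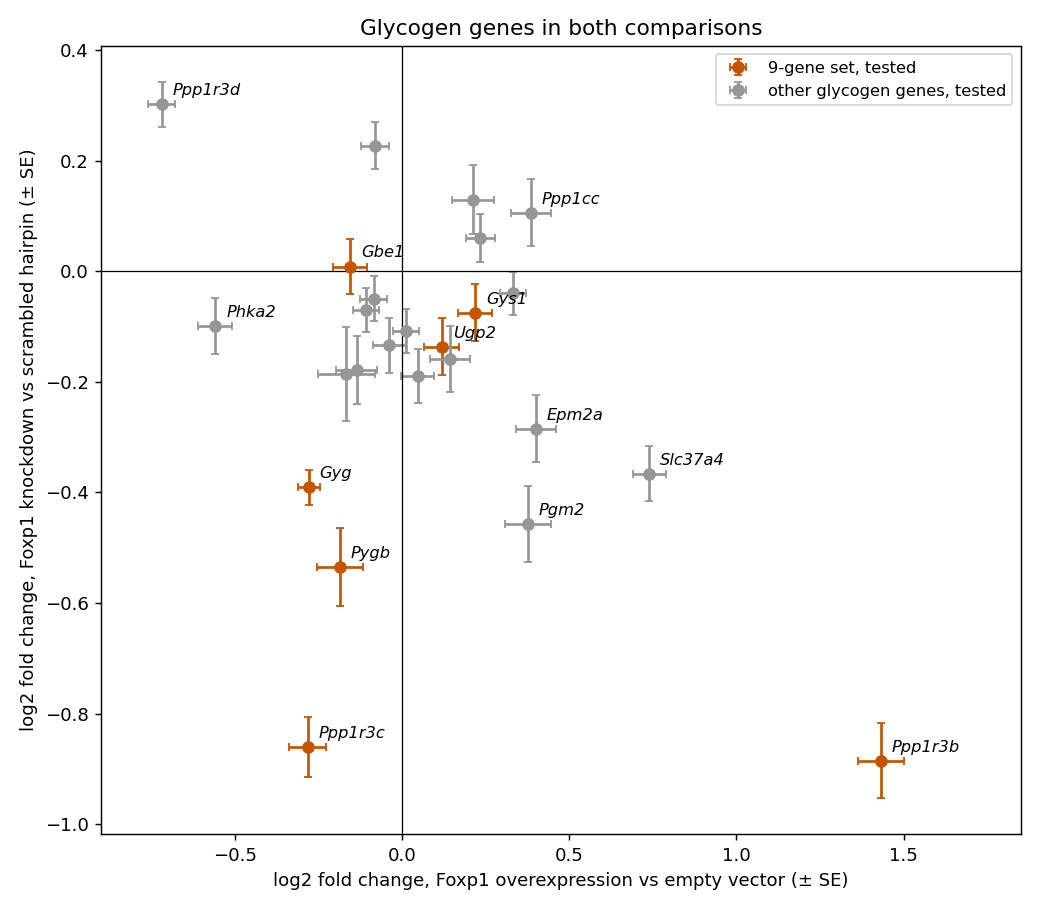
Log2 fold change ± SE in overexpression against the empty vector (horizontal axis) and in knockdown against the scrambled hairpin (vertical axis) for the 7 tested genes and 18 further glycogen genes. Ppp1r3b, Slc37a4, Pgm2 and Epm2a lie at the lower right, Ppp1r3d at the upper left, and Ppp1r3c, Pygb and Gyg at the lower left.

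The genes whose profile was closest to that of Ppp1r3b were Rasl12, Tnfrsf21 and Ly6e, with root mean square differences of 0.079, 0.126 and 0.131 on the log2(RPKM + 1) scale over the 12 libraries, each gene centred on its own mean. Rasl12, a small GTPase of the Ras family, had 8.40 ± 0.535 RPKM with overexpression, 3.78 ± 0.164 with knockdown, 7.75 ± 0.410 with the scrambled control and 2.72 ± 0.101 with the empty vector (SD, n = 3 each). They share with Ppp1r3b the order of these 4 groups in broad form, high with overexpression and the scrambled hairpin and low with knockdown and the empty vector. Tnfrsf21, a receptor of the tumour necrosis factor family, had 5.36 ± 0.0807 RPKM with overexpression and 5.55 ± 0.391 in scrambled hairpin cells, and these libraries overlapped, as those of Ppp1r3b did. Ly6e had 104 ± 13.2 RPKM with overexpression, 58.5 ± 1.84 with knockdown, 93.3 ± 1.76 with the scrambled hairpin and 39.4 ± 1.34 with the empty vector. At this higher level the + 1 compresses its changes less than those of Ppp1r3b. This likeness is a description over libraries that share their groups.

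**Figure D5:**
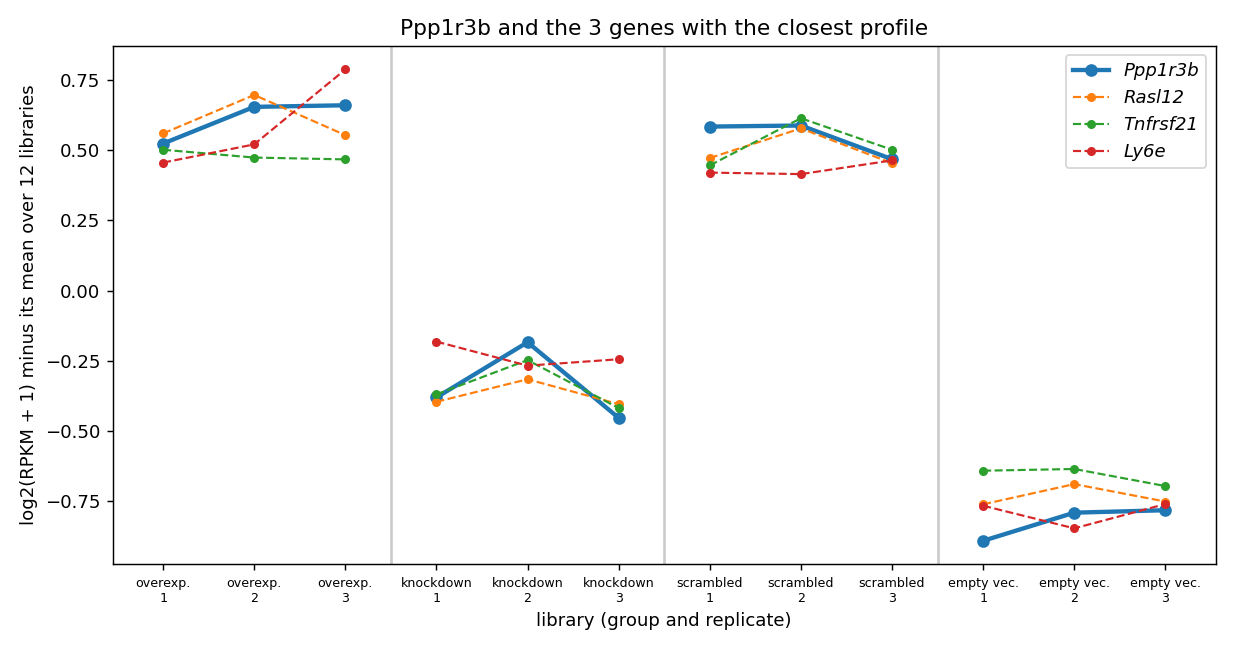
Log2(RPKM + 1) minus its mean over the 12 libraries (vertical axis) for Ppp1r3b and its 3 closest genes in each library (horizontal axis); lines join the libraries of a group. All 4 genes lie above 0 in the overexpression and scrambled hairpin libraries and below 0 in the knockdown and empty vector libraries.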

How the data were processed

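RNA of 12 libraries was sequenced by the submitters; the labels' protocols name TRI reagent and RNeasy columns for extraction. The authors deposited RPKM per gene, divided by 1000, and the values were multiplied by 1000 here. Per the submitters' processing notes, HISAT2 2.1.0 and featureCounts of Subread 1.5.3 were used on build mm10; strand, multi-mapping settings and roles are not given in the sources used here. Symbols, positions and exon lengths came from GENCODE M21 for 28896 of 28948 identifiers of Ensembl release 98 (both GRCm38). Value times exon length was a whole multiple of 1 step per library, to within 0.05 read, for 98.83% to 98.93% of nonzero values, which gave depth and reads.

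Log2(RPKM + 1) of the 11245 genes was fitted with limma 3.58.1 in R 4.3.3 (4 groups, variance trend), with p-values adjusted over all genes by Benjamini-Hochberg. The scale understates changes of low genes, so ratios of means stand beside the main values. Simulated reads with known changes, a fixed spread and no shift in scaling were run through the fit. No result here rests on them. The 9 genes, the 25 further genes and the tests were chosen with earlier results of these data known. All 9 genes could be named, as could further genes called or at 1 RPKM, and the 3 genes nearest in profile to the gene with the largest change. One item is not reported here. Promoter windows are RefSeq's, for 8 of the 9 genes. The same replicate numbers occur in the groups. Same-numbered libraries showed little shared deviation, a weak check with 3 libraries per group, and no pairing was used in the main fit. Alternatives were other pseudocounts, filters, scalings and variance models, voom on the recovered reads, a replicate block, a stricter threshold and leaving out each library. Python 3.11.15 with matplotlib 3.10.9 and pandas 2.3.3 made the figures.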

Additional observations from a re-analysis of the deposited data

How the results depend on the processing

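Ppp1r3b, Ppp1r3c and Gyg kept their calls and directions in both comparisons under all 17 alternatives, as did Pygb in knockdown and Gys1 in overexpression. The count of the 7 tested genes called ranged from 4 to 6 with overexpression, 4 to 5 with knockdown and 5 to 7 for the difference of responses when 1 library was left out. The small fold change of Gbe1 in knockdown, 0.01 and not called, turned to -0.0257 with TPM scaling and spanned -0.0319 to 0.0418 when 1 library was left out, being below 0 without knockdown replicate 2 or scrambled replicate 2 or 3, and that of Ppp1r3c between the controls turned to -0.0098 with median-ratio scaling; none of these was called, and the cause was not tested. For the difference of responses over all genes, median-ratio scaling gave 3149 higher and 2909 lower, beside 3888 and 2285. In knockdown it gave 2628 higher and 2955 lower and TPM scaling 1611 and 3724, beside 2100 and 3487. Between the controls median-ratio scaling gave 4184 higher and 3780 lower and TPM scaling 5678 and 2364, beside 5037 and 3033. With a replicate block, 5 genes were called with overexpression (Pygb ended, adjusted p = 0.0585), 5 with knockdown and 5 for the difference, and 5688, 5498 and 6117 of all genes were called, beside 5775, 5587 and 6173. Same-numbered libraries correlated at -0.013, 0.118 and 0.081 in the overexpression pair and -0.073, 0.049 and -0.059 in the knockdown pair. Knockdown replicate 1 correlated best with scrambled replicate 3, at 0.237. With 3 libraries per group this check is weak and cannot decide whether same-numbered libraries were handled together. With no filter on low values, Pygb in overexpression (adjusted p = 0.103) and Ugp2 in knockdown (0.0985) were not called. The precision of Pygl and Pygm is limited by their 67 to 312 and 17 to 72 reads.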
